A study of Mus musculus with 9 samples.

Results

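The lens crystallin genes described here are Cryaa, Cryab, Cryba1, Crybb2, Crygb, Crygc, Crygd, Cryge and Crygs of the mouse. They were chosen as the probe sets that the array's platform annotation assigns to 1 of these genes and to no other gene, which gave 16 of the 12488 probe sets on the array for the 9 genes. Of the 16, 15 passed the filter on low values and were tested, and 1 probe set of Cryab did not. The tissues were lens (2 arrays), adult cornea (3 arrays), cornea at postnatal day 10, called P10 cornea (2 arrays), and the flexor digitorum longus tendon (2 arrays). Lens, adult cornea and tendon came from mice 7 weeks old, with pooled RNA for lens and tendon, and each array held an independent preparation of total RNA. The corneas were cut free of the limbus and their epithelium was scraped off. How far this lowered the epithelial share was not measured here, and epithelial transcripts remained, as the Krt12 values below show. No transgene, mutation or treatment is named for any group, and no strain was named in the sources used here. The submitters had used the arrays of cornea in an earlier study, so batch and tissue cannot be told apart where cornea is set against lens or tendon. Values are a linear expression index in arbitrary units, which can be below 0. P-values measure the spread between RNA preparations. Precision is limited by the number of arrays.

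Crystallins are the soluble proteins that fill the fibre cells of the lens and give it transparency and refractive power. The alpha crystallins belong to the small heat shock proteins and act as chaperones, while the beta and gamma crystallins share a fold built from Greek key motifs and serve mainly as structural proteins. Alpha B crystallin is also abundant in heart and skeletal muscle, and crystallin transcripts have been described in cornea and retina at levels far below those of the lens. Fibre cells lose their nuclei as they mature, and the gamma crystallin genes are mostly active early in life.

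The tissues carried their own markers. Mip, the major membrane protein of the lens fibre, had 1918 and 1799.6 index units in lens, against 27.2, 34.7 and 37.7 in adult cornea, 43.8 and 76.5 in P10 cornea and 11.7 and 14.2 in tendon. Krt12, the keratin of the corneal epithelium, lay between 6439.9 and 8290.3 on the 5 arrays of cornea, but lens also had 1758 and 1603 and tendon 401 and 257. Chad, chondroadherin of tendon and cartilage, had 5239 and 5617 in tendon, and the 12 skeletal muscle markers summed to between 50487 and 59787 there, against at most 1160.3 on any other array. The tendon samples thus held muscle transcripts at high levels. Array medians lay between 67.6 and 88.0. Adult cornea replicate 1 stood apart in its ratio of 3' to 5' probe sets, which was 2.25 for Gapdh against 0.831 to 1.04 on the other arrays, and 4.69 for actin against 1.07 to 2.07. In bulk samples such as these, fewer cells of a type and less RNA per cell cannot be told apart.

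The promoters of 5 members are shown. Cryaa is the alpha crystallin of the lens, and Crygb, Crygc, Crygd and Cryge lie side by side on chromosome 1. Each sequence holds the 120 bases before the annotated start in RefSeq's assembly GRCm38.p6, read 5' to 3' on the gene's strand. The capitals mark matches to TGCNNNNNNNGCA, the outer bases of the element bound by Maf proteins, and to TATATA, a form of the TATA box. The build of the array's own design was not stated in the sources used here.
Cryaa, chr17:31677811-31677930, strand plus: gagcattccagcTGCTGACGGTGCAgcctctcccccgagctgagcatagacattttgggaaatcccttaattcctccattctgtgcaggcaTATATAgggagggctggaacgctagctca
Crygb, chr1:65082291-65082410, strand minus: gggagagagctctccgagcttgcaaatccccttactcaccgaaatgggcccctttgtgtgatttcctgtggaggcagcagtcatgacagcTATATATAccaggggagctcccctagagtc
Crygc, chr1:65073533-65073652, strand minus: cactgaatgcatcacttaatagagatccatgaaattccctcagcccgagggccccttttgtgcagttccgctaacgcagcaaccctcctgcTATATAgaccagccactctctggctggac
Crygd, chr1:65063441-65063560, strand minus: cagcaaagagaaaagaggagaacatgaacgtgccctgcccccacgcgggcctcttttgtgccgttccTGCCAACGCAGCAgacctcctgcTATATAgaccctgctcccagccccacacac
Cryge, chr1:65051164-65051283, strand minus: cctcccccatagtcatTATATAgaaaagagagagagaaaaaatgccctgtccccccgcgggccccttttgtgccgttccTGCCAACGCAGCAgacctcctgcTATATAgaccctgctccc

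Of the 9 member genes, 8 had a promoter in the RefSeq table, and Cryab did not match. Both strands were searched for TGCNNNNNNNGCA, TATATA and TATAAA. TGCNNNNNNNGCA was in 3 of the 8 promoters, those of Cryaa, Crygd and Cryge, and in 2.9% of 32851 mouse promoters of the same length. TATATA was in 5 of the 8, the 5 printed above, and in 2.51% of all promoters, and the 2 matches in Crygb overlap each other. TATAAA was in 2 of the 8, Cryba1 and Crygs, and in 6.34% of all promoters. The promoters of Crygd and Cryge shared an unbroken run of 56 bases, which takes in their Maf-type match, while Crygc shared at most 18 bases with either of them. These matches describe letters and not binding.

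All 9 crystallin genes were higher in lens than in adult cornea by at least 1 probe set. Of the 15 tested probe sets, 13 were higher in lens than in adult cornea and 0 were lower, by limma at an adjusted p of 0.05, where 51.2% of all 8154 tested probe sets were called in either direction, 24% higher in lens and 27.2% lower. The median log2 difference of the members was 2.38, against -0.08 over all tested probe sets. Against P10 cornea, 12 were higher in lens and 1 was lower, where 51% of all tested probe sets were called, 19.4% higher and 31.6% lower. The median log2 difference there was 1.54, against -0.25 over all tested probe sets. Comparisons that share a tissue share its arrays, so their counts are not independent. Both counts include 2 probe sets of Cryge, 162018_r_at and 96965_at, that passed the filter on low values only through the lens arrays.

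Cryaa encodes alpha A crystallin, the lens chaperone. Its probe set 102393_at had 6405 and 7231 index units in lens, 1279.7, 2443 and 2078 in adult cornea, 1603 and 3082 in P10 cornea and 12.2 and 31.7 in tendon. Both lens arrays lay above every array of cornea, and every array of cornea lay far above tendon. The lens mean was 6818 ± 584 (SD, n = 2) and the adult cornea mean 1934 ± 595 (SD, n = 3), a 3.53-fold difference of means with a log2 difference of 1.86 ± 0.35 (SE; limma adjusted p = 0.00146). The log2 difference between lens and P10 cornea was 1.61 ± 0.38 (limma adjusted p = 0.00609). Without P10 cornea replicate 1, the lower of the pair, that call was lost, with a log2 difference of 1.14 and a limma adjusted p of 0.0618.

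Cryab encodes alpha B crystallin, which is expressed well beyond the lens. Its probe set 162308_f_at had 3252 and 2958 in lens, 226, 251 and 220.5 in adult cornea, 184 and 250.4 in P10 cornea and 356 and 371 in tendon. Cornea was the lowest of the tissues here and tendon lay between cornea and lens, an order no other bright crystallin probe set had. The lens mean of 3105 ± 208 (SD, n = 2) was 13.4-fold that of adult cornea, 232 ± 16.1 (SD, n = 3), with a log2 difference of 3.65 ± 0.19 (limma adjusted p = 4.33e-07). Against P10 cornea the log2 difference was 3.76 ± 0.20 (limma adjusted p = 1.07e-06). The other Cryab probe set, 93279_at, had 68.8 and 103 in lens, 17.2, 23.5 and 1.28 in adult cornea, 22.8 and 10.8 in P10 cornea and 18.1 and 13.9 in tendon. The suffix _f_at of the tested probe set marks probes shared within a gene family, and the Cryab results rest on it alone. The probe set 93279_at reached its array's median on fewer than 2 arrays and was not tested, although both lens arrays were above all others.

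The beta crystallins are structural proteins that assemble into oligomers. Cryba1, which encodes beta A1 and beta A3 crystallin, had 5926 and 6202 in lens, 1147, 1747 and 1468 in adult cornea, 1528 and 2811 in P10 cornea and -19.0 and -9.04 in tendon (104518_at). Lens was separated from all cornea arrays, and the corneas of both ages overlapped each other. The log2 difference was 2.07 ± 0.26 between lens and adult cornea (limma adjusted p = 0.000122) and 1.54 ± 0.29 between lens and P10 cornea (limma adjusted p = 0.00169).

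Crybb2 encodes beta B2 crystallin, a basic beta crystallin that is prominent in the mature lens. Its probe set 100688_at had 6628 and 7122 in lens, 846, 1441 and 1250.3 in adult cornea, 382 and 559 in P10 cornea and -52.4 and -36.9 in tendon. Here the 4 groups did not overlap, in the order lens, adult cornea, P10 cornea, tendon. The lens mean was 5.83-fold that of adult cornea (log2 difference 2.56 ± 0.25, limma adjusted p = 1.95e-05) and 14.6-fold that of P10 cornea (log2 difference 3.85 ± 0.27, limma adjusted p = 3.42e-06). The other probe set, 162019_r_at, had 154 and 148 in lens, 194, 146 and 173 in adult cornea, 196 and 169 in P10 cornea and 132 and 159 in tendon, and was called in none of the 6 comparisons. Its suffix marks a probe set designed under relaxed rules, and the probe sets of Crybb2 disagreed, so the direction above rests on 100688_at.

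The gamma crystallins are monomers packed in the dense core of the lens. Crygb had 5027 and 5164 in lens, 789, 1055 and 1083 in adult cornea, 1516 and 2106 in P10 cornea and 25.2 and 14.2 in tendon by 93457_at. By 161780_f_at it had 3157 and 3175 in lens, 254, 414 and 257 in adult cornea, 519 and 670.3 in P10 cornea and -2.28 and -4.55 in tendon. The 2 probe sets put the groups in the same order. The log2 differences between lens and adult cornea were 2.38 ± 0.23 and 3.33 ± 0.24 (limma adjusted p = 1.61e-05 and 2.58e-06).

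Crygc had 6486 and 7492 in lens, 627, 971 and 750.3 in adult cornea, 896 and 1443 in P10 cornea and -77.7 and -67.9 in tendon (96586_at). It was below 0 on both tendon arrays and overlapped between the ages of cornea. The lens mean was 8.93-fold that of adult cornea (log2 difference 3.15 ± 0.25, limma adjusted p = 4.75e-06) and 5.97-fold that of P10 cornea (log2 difference 2.60 ± 0.27, limma adjusted p = 4.04e-05).

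Crygd had 7582 and 8079 in lens, 869, 1729 and 1416 in adult cornea, 2558 and 4374 in P10 cornea and 21.6 and 23.1 in tendon by 104171_f_at, the highest value of any probe set on both lens arrays. The groups did not overlap, and P10 cornea stood between adult cornea and lens. The log2 difference between lens and adult cornea was 2.59 ± 0.30 (limma adjusted p = 5.86e-05) and that between lens and P10 cornea 1.22 ± 0.33 (limma adjusted p = 0.0110). The P10 call was lost without lens replicate 2 (log2 difference 1.18, limma adjusted p = 0.0646) and without P10 cornea replicate 1 (0.84, limma adjusted p = 0.106).

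Cryge had 4 probe sets. By 97579_f_at it had 6557 and 7310.5 in lens, 1022, 2034 and 1724 in adult cornea, 3201 and 5012 in P10 cornea and 61.5 and 77.3 in tendon. By 103026_f_at it had 6537 and 7202 in lens, 772, 1462 and 1093 in adult cornea, 2629 and 4004 in P10 cornea and 34.5 and 50.6 in tendon. Both showed the order of Crygd, with the groups apart. The _f_at suffix, shared by these probe sets, the bright Crygd one and 161780_f_at of Crygb, marks probes common to a gene family, so signal from Crygd, Cryge and other gamma crystallins cannot be told apart in them. Between lens and adult cornea the log2 differences were 2.17 ± 0.29 and 2.66 ± 0.28 (limma adjusted p = 0.000169 and 3.19e-05). Between lens and P10 cornea 97579_f_at did not pass, with a log2 difference of 0.79 ± 0.32 and a limma adjusted p of 0.0624, and it did pass without adult cornea replicate 1 (0.0244), without adult cornea replicate 2 (0.0466) or without P10 cornea replicate 2 (0.0434). For 103026_f_at the log2 difference was 1.08 ± 0.31 (limma adjusted p = 0.0148), and that call was lost without lens replicate 2 (0.0827) and without P10 cornea replicate 1 (0.129).

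The dimmer Cryge probe sets passed the filter only through lens, so their values are given as a description. The probe set 162018_r_at had 231 and 254 in lens, 25.7, 21.7 and 58.2 in adult cornea, 37.6 and 38.2 in P10 cornea and 12.9 and 21.1 in tendon. The probe set 96965_at had 128 and 174 in lens, 43.1, 36.5 and 67.1 in adult cornea, 47.6 and 53.6 in P10 cornea and 44.6 and 50.2 in tendon. Lens was apart from the rest in both, and the corneas of both ages overlapped.

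Crygs encodes gamma S crystallin, which continues to be made in the adult lens. It had 6002 and 6652 in lens, 1230.5, 1605 and 1631 in adult cornea, 844 and 1647 in P10 cornea and 105 and 119 in tendon (93391_at). Lens was apart from cornea and cornea from tendon, while the ages of cornea overlapped. The log2 difference was 2.09 ± 0.26 between lens and adult cornea (limma adjusted p = 0.000109) and 2.41 ± 0.29 between lens and P10 cornea (limma adjusted p = 9.3e-05).

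**Figure D1:**
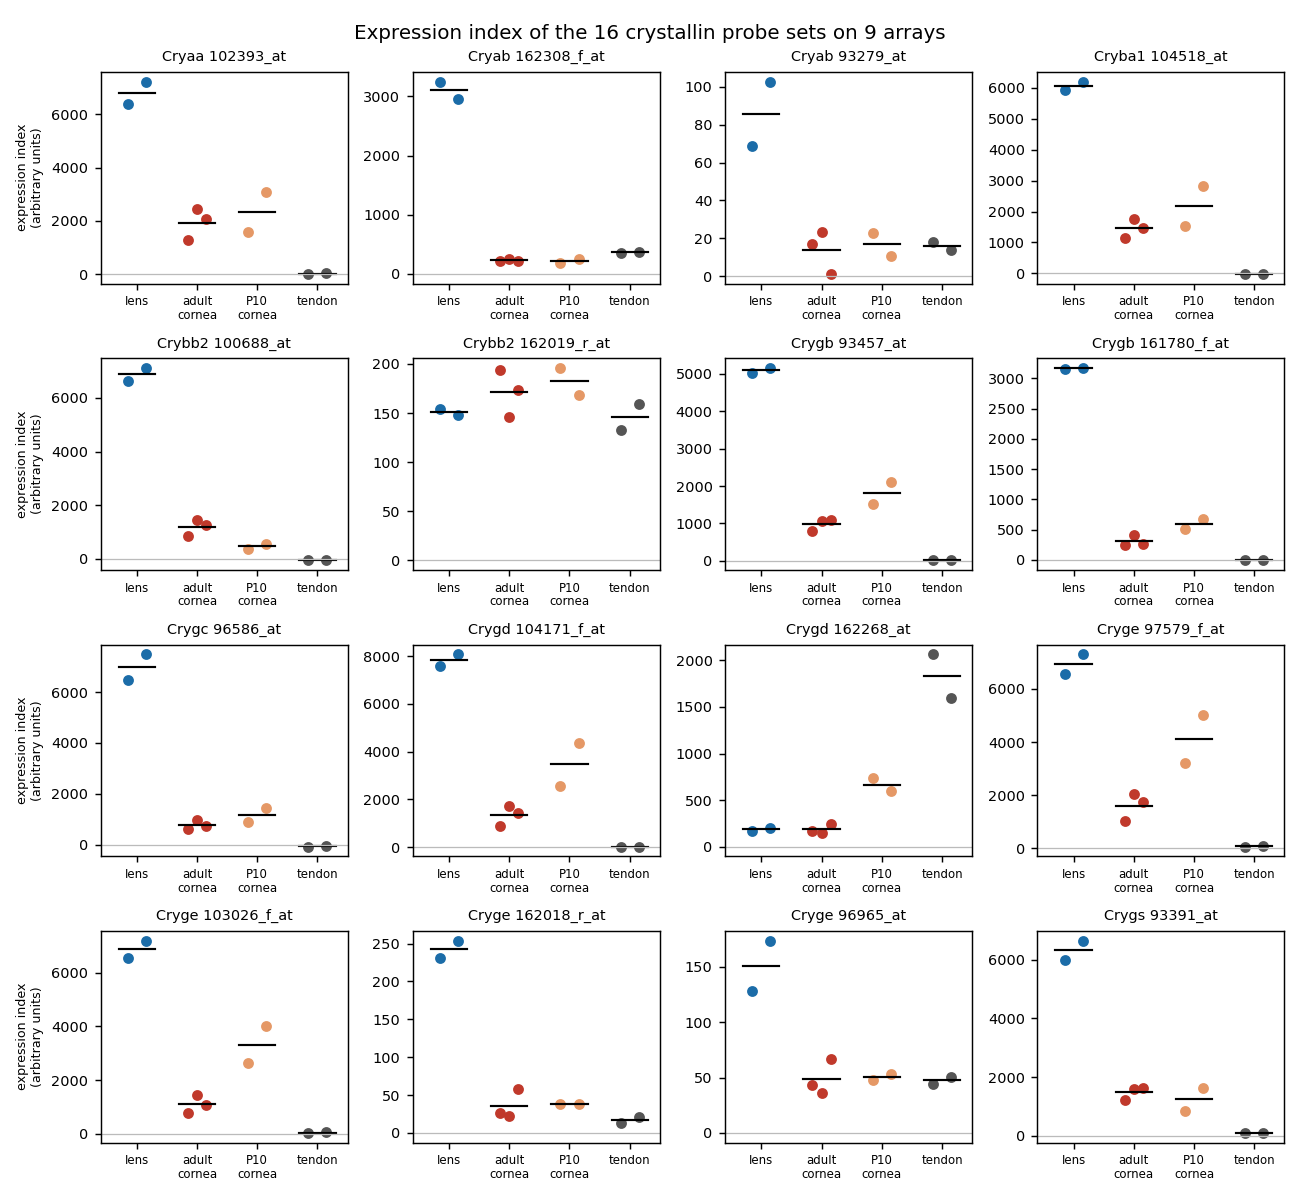
Expression index of each of the 16 crystallin probe sets, 1 panel per probe set, with 1 point per array for lens, adult cornea, P10 cornea and tendon and a line at each group mean; the vertical axis is the deposited index in arbitrary units. In the panels of the 10 bright probe sets other than that of Cryab every lens point lies above every cornea point, as for 26.2% of all tested probe sets. Every cornea point there lies above every tendon point, also as for 26.2% of all. Bright means a lens mean of at least 1000, so these probe sets were chosen on their lens values. Crygd 162268_at is highest in tendon and Crybb2 162019_r_at is flat.

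How much of the lens level the cornea reached was given for each probe set as a percentage of its own lens mean. Over the 10 bright probe sets, those with a lens mean of at least 1000, leaving out Cryab, adult cornea replicates 1, 2 and 3 held a median of 13.5%, 21.7% and 19.7%, with ranges of 8.03 to 19.4%, 13.1 to 35.8% and 8.11 to 30.5%. P10 cornea replicates 1 and 2 held a median of 24.4% and 43.3%, with ranges of 5.55 to 46.2% and 8.13 to 72.3%, and the tendon arrays lay between -1.11% and 1.88%. The lowest share in P10 cornea was that of Crybb2, at 5.55% and 8.13%, where adult cornea had 12.3%, 21.0% and 18.2%. The highest was that of Cryge by 97579_f_at, at 46.2% and 72.3% in P10 cornea, where adult cornea had 14.7%, 29.3% and 24.9%.

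The arrays of 1 group moved together across members. Adult cornea replicate 1 was the lowest of the 3 adult cornea arrays for 10 of the 10 bright probe sets, as for 20.3% of all tested probe sets, and it is the array whose 3' to 5' ratios stood apart. Replicate 2 was the highest for 8 of the 10, as for 31.1% of all. P10 cornea replicate 2 was above replicate 1 for 10 of the 10, as for 42.7% of all, by 1.29 to 1.95 times. The part of RNA quality or of dissection in these differences between arrays was not tested.

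Of 12 listed lens fibre markers 4 have a probe set of their own on the array. Mip, Bfsp1 and Gja3 were far lower in cornea than in lens, while Hopx was not. Mip held 1.46%, 1.87% and 2.03% of its lens mean in adult cornea and 2.36% and 4.12% in P10 cornea, from the values given above. Bfsp1, a beaded filament protein, had 3731 and 3300.0 in lens, 61.5, 65.7 and 79.5 in adult cornea, 131 and 147 in P10 cornea and 46.3 and 42.6 in tendon. Gja3, the connexin of fibre gap junctions, had 546 and 415 in lens, 3.32, 2.57 and -0.0567 in adult cornea, 7.13 and 3.57 in P10 cornea and 0.466 and 7.27 in tendon. Over these 3 genes the shares of the lens mean ran from -0.0118 to 2.26% in adult cornea and from 0.743 to 4.18% in P10 cornea, against 0.0970 to 1.51% in tendon. Each of the 10 bright crystallin probe sets, chosen by lens mean, held a larger share than these 3 genes on every array of cornea. Hopx held 195%, 192% and 111% of its lens mean in adult cornea and 70.1% and 71.8% in P10 cornea. No such share was counted over other probe sets bright in lens. Bfsp1 was higher in lens than in either cornea by limma, and it was lower in adult than in P10 cornea (log2 difference -0.87, limma adjusted p = 0.0259). Mip and Gja3 passed the filter on low values only through the lens arrays, so their values are given as a description. Hopx, a homeodomain gene on the same list, was lower in lens than in adult cornea (log2 difference -0.68, limma adjusted p = 0.0434), with 723 and 669 in lens, 1360.1, 1339 and 771 in adult cornea, 488 and 499.9 in P10 cornea and 165 and 188 in tendon.

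Markers of other parts of the eye also varied among the cornea arrays. Sag, the arrestin of rod photoreceptors, had 1015 and 533 in lens, 239.9, 346 and 1204 in adult cornea, 571 and 922 in P10 cornea and -5.27 and 1.81 in tendon. The 7 photoreceptor and retina markers on the array, of 8 listed, summed to between 2101 and 3117 in lens, 548 and 2219 in adult cornea, 1226 and 1898 in P10 cornea and 239 and 269 in tendon. Adult cornea replicate 3, the highest for Sag, was not the highest adult array for most crystallins. Gnat1, on the same list, had 14.8, 191 and 120 in adult cornea, so its order of adult arrays was that of most bright crystallins. The remaining markers of this list on the array were highest on adult cornea replicate 3, as Sag was. Each marker of this list on the array, Gnat1 and Sag included, was higher on P10 cornea replicate 2 than on replicate 1. Pmel, a melanosome protein, had 176 on both lens arrays, 128, 130.4 and 183 in adult cornea, 429.6 and 1647 in P10 cornea and 111 and 119 in tendon, so that P10 cornea replicate 2 was the higher of the pair for Pmel as for the bright crystallins. The 4 pigment cell and iris markers on the array, of 6 listed, summed to between 393 and 505 in lens, 503 and 653 in adult cornea, 1246 and 3509 in P10 cornea and 604 and 613 in tendon. The part of tissue carried over from neighbouring eye structures in the crystallin signal of cornea was not tested beyond these values.

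**Figure D2:**
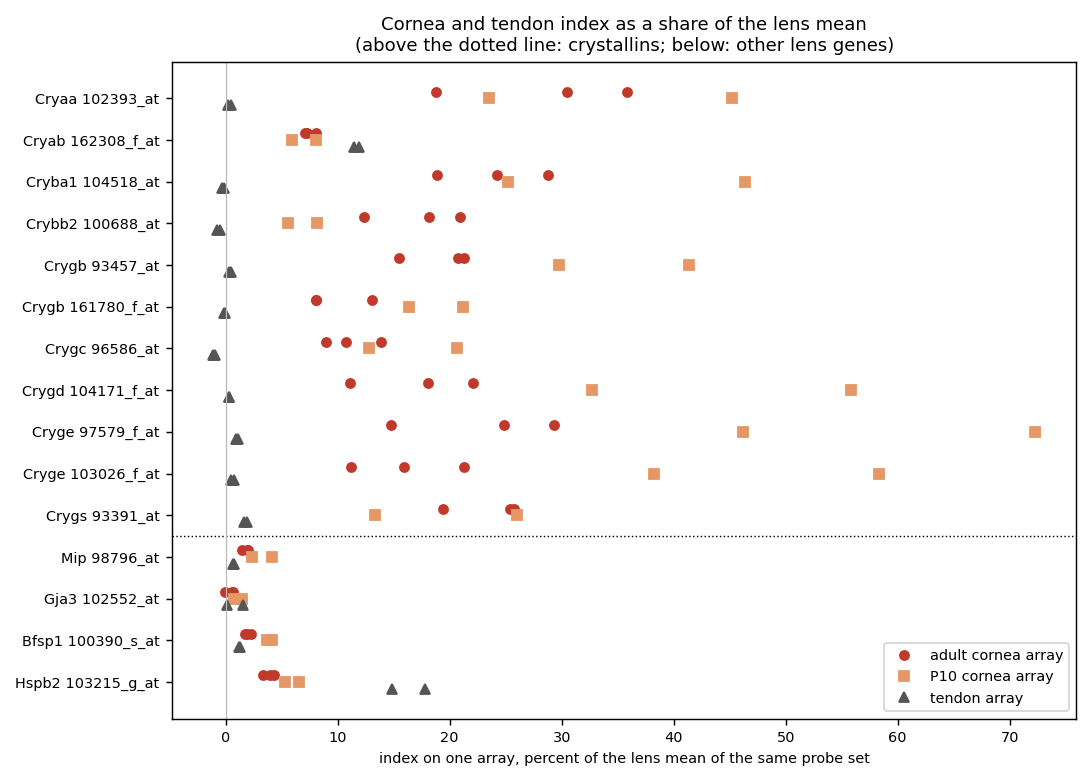
Index on each cornea and tendon array as a percentage of the same probe set's lens mean, for the 11 bright crystallin probe sets and for Mip, Gja3, Bfsp1 and Hspb2. The crystallins other than Cryab spread from 5.55% to 72.3% across the cornea arrays, while Mip, Gja3 and Bfsp1 stay at or under 4.18%. Hopx, the remaining fibre marker on the array, is not shown.

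The crystallin values in lens lay near the top of the measured scale. The highest value on any array was between 6440 and 8924 index units, and 9 of the 11 bright crystallin probe sets exceeded 5000 on both lens arrays. Among all probe sets, 9 crystallin probe sets were in the top 20 and 11 in the top 50 on each lens array. The bright probe sets differed between the lens replicates by a factor of 0.909 to 1.16. The 2 bright probe sets below 5000 in lens were those of Cryab and the 161780_f_at of Crygb, whose shares in adult cornea were 7.10 to 8.07% and 8.03 to 13.1%. Low shares also occurred above 5000. Among those probe sets the lowest in adult cornea were those of Crygc, at 8.98%, 13.9% and 10.7%. The lowest in P10 cornea were those of Crybb2, at 5.55% and 8.13%. For Crygb the brighter 93457_at gave a larger share than 161780_f_at on each of the 5 cornea arrays, 15.5%, 20.7% and 21.3% against 8.03%, 13.1% and 8.11% in adult cornea and 29.8% and 41.3% against 16.4% and 21.2% in P10 cornea. Likewise the dim 162018_r_at of Cryge gave 15.5% and 15.8% in P10 cornea, where its bright probe sets gave 38.3% to 72.3%. In adult cornea 162018_r_at gave 10.6%, 8.95% and 24.0%, below both bright probe sets on replicates 1 and 2 and between them on replicate 3. The other dim one, 96965_at, gave 31.5% and 35.5% in P10 cornea, but in adult cornea its 28.5%, 24.2% and 44.4% were above both bright probe sets on 2 of the 3 arrays, where the bright ones ran from 11.2 to 29.3% over the group. In tendon 96965_at gave 29.6% and 33.3% and 162018_r_at 5.30% and 8.71%. The cornea and tendon values of 96965_at overlapped, so its cornea shares are not read as crystallin levels. Both dim probe sets passed the filter only through lens. Saturation of the brightest probe sets in lens would raise such shares and make the fold differences too small, and it was not tested.

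In summed signal the members made up 2.81% and 3.48% of the index over all probe sets in lens, 0.455%, 0.764% and 0.670% in adult cornea, 0.747% and 1.23% in P10 cornea and 0.130% and 0.107% in tendon. The largest part of the sum in tendon was 162268_at, with 2067 and 1594 index units, which is not read below as the level of Crygd. On P10 cornea replicate 2, Cryge by 97579_f_at ranked 8 and Crygd by 104171_f_at ranked 18 among all probe sets, whereas on replicate 1 they ranked 40 and 74. On the adult cornea arrays the same probe sets ranked 246, 105 and 117 for Cryge and 312, 131 and 151 for Crygd. A rank describes brightness on the array and not the amount of transcript.

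**Figure D3:**
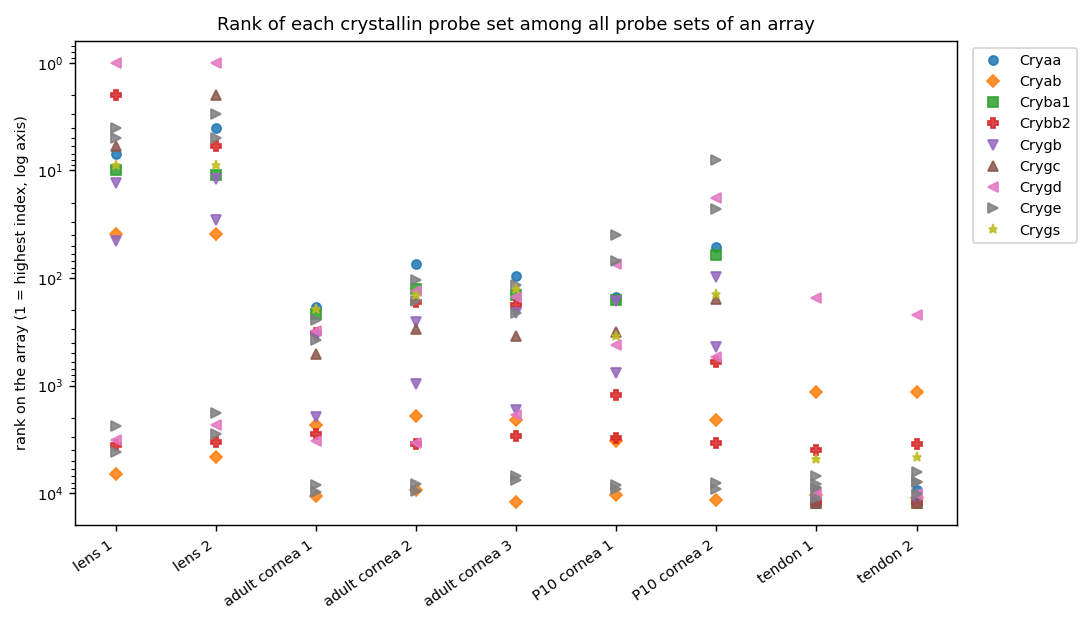
Rank of each crystallin probe set by index among all probe sets of an array, on a log axis with rank 1 at the top, for the 9 arrays in the order lens, adult cornea, P10 cornea, tendon. On the lens arrays 9 members lie within the top 20; on the tendon arrays only Crygd 162268_at, at 154 and 222, is within the top 1000.

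The bright family probe sets of Crygd and Cryge, whose signal cannot be assigned to 1 gamma crystallin, were lower in adult than in P10 cornea. Crybb2 was higher by 100688_at, and the genes other than these did not pass. The dim Cryge probe sets did not pass either, with log2 differences of -0.14 ± 0.29 for 162018_r_at and -0.06 ± 0.23 for 96965_at (limma adjusted p = 0.901 and 0.957). Of the 15 tested probe sets 1 was higher in adult cornea and 4 were lower, 162268_at of Crygd among them, by limma at an adjusted p of 0.05, where 4.57% of all tested probe sets were called, 0.699% higher and 3.88% lower. The median log2 difference of the members was -0.53, against -0.13 over all tested probe sets. Both cornea groups come from the same earlier set of arrays.

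Cryge by 103026_f_at was lower in adult cornea, 1109 ± 345 (SD, n = 3), than in P10 cornea, 3316 ± 973 (SD, n = 2), with a log2 difference of -1.58 ± 0.28 (limma adjusted p = 0.0115). By 97579_f_at the log2 difference was -1.38 ± 0.29 (limma adjusted p = 0.0267), with means of 1593 ± 519 in adult cornea (SD, n = 3) and 4106 ± 1280.1 in P10 cornea (SD, n = 2). For Crygd by 104171_f_at it was -1.37 ± 0.30 (limma adjusted p = 0.0304), with means of 1338 ± 435 in adult cornea (SD, n = 3) and 3466 ± 1284 in P10 cornea (SD, n = 2). In all 3 probe sets both P10 arrays lay above all adult cornea arrays. These calls depended on single arrays. Without P10 cornea replicate 2, the brighter one, the limma adjusted p was 0.153 for 103026_f_at, 0.277 for 97579_f_at and 0.315 for 104171_f_at, with log2 differences of -1.28, -1.06 and -0.98. With adult cornea replicate 1 left out, whose 3' to 5' ratios stood apart, it was 0.0537 for 97579_f_at and 0.0718 for 104171_f_at, and without P10 cornea replicate 1 it was 0.0580 for 97579_f_at. Crygd also lost its call without any 1 of the lens or tendon arrays, with limma adjusted p between 0.0555 and 0.0591 and the same log2 difference.

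Crybb2 ran the other way, at 1179 ± 304 in adult cornea (SD, n = 3) and 470.3 ± 125 in P10 cornea (SD, n = 2), a 2.51-fold difference of means with a log2 difference of 1.29 ± 0.25 (limma adjusted p = 0.0188). All 3 adult arrays lay above both P10 arrays, and Crybb2 was the 1 of the 10 bright probe sets with that pattern, which 6.46% of all tested probe sets showed. Its call was lost without P10 cornea replicate 1 (log2 difference 1.02, limma adjusted p = 0.227) and without P10 cornea replicate 2 (1.55, limma adjusted p = 0.0555). In contrast, 8 of the 10 bright probe sets had a P10 mean above the adult mean, as 64.4% of all tested probe sets did, and 5 had both P10 arrays above all adult arrays, as 25.1% of all did.

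The probe sets of Crygb were close to the threshold, with log2 differences of -0.88 ± 0.23 for 93457_at and -0.94 ± 0.24 for 161780_f_at (limma adjusted p = 0.0612 and 0.0583). Both P10 arrays were above all adult arrays in each. Without adult cornea replicate 2, the call of 161780_f_at passed, with a log2 difference of -1.16 and a limma adjusted p of 0.0106. For Crygc the log2 difference was -0.55 ± 0.25 (limma adjusted p = 0.318) and for Cryba1 -0.53 ± 0.26 (limma adjusted p = 0.383). Cryaa had -0.25 ± 0.35 (limma adjusted p = 0.831), Cryab 0.10 ± 0.19 by 162308_f_at (limma adjusted p = 0.884) and Crygs 0.32 ± 0.26 (limma adjusted p = 0.656). The groups overlapped in these last 5 genes.

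**Figure D4:**
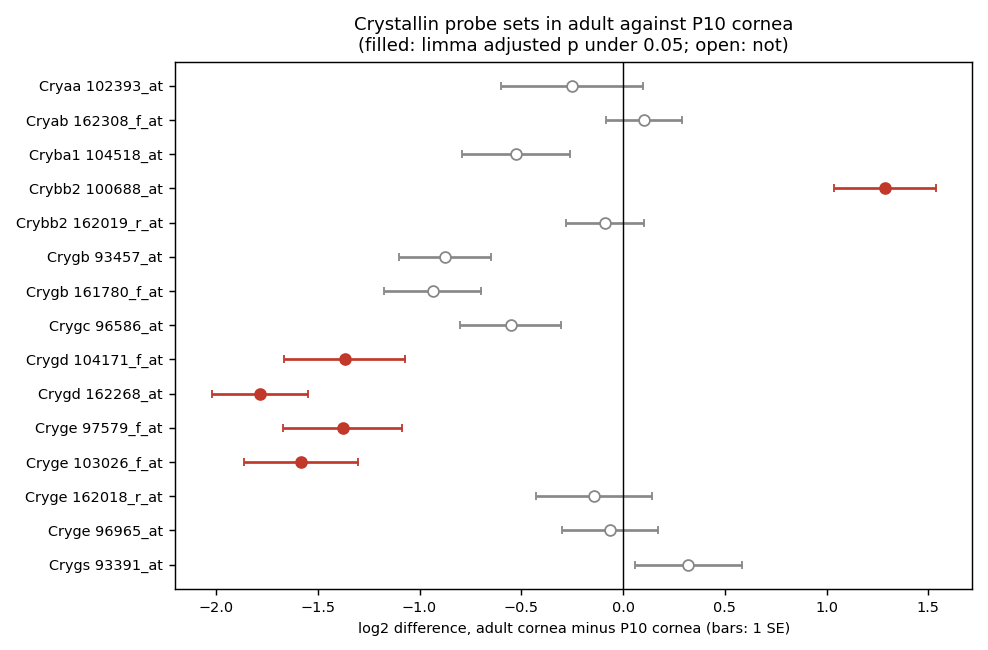
Log2 difference between adult and P10 cornea for the 15 tested crystallin probe sets, with bars of 1 standard error from the limma fit and filled points for an adjusted p below 0.05. Crybb2 100688_at lies at 1.29 and the 2 bright Cryge probe sets at -1.58 and -1.38; the gene symbols and probe set identifiers run down the page.

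Most crystallins were at high levels in both corneas and near or below 0 in tendon. Of the 15 tested probe sets 10 were higher in adult cornea than in tendon and 2 were lower by limma, where 35% of all tested probe sets were called, 16.1% higher and 18.9% lower. For P10 cornea against tendon the counts were also 10 and 2, where 26.7% of all were called, 15.7% higher and 11% lower. In these 10 probe sets every array of cornea lay above every array of tendon, as in 26.2% of all tested probe sets. The smallest of the 10 differences was that of Crygs, with log2 differences of 3.55 ± 0.26 for adult cornea and 3.23 ± 0.29 for P10 cornea (limma adjusted p = 3.76e-06 and 2.37e-05). Cryaa had 5.68 ± 0.35 and 5.93 ± 0.38 (limma adjusted p = 9.77e-07 and 2.26e-06). Because Cryba1, Crybb2, Crygc and 161780_f_at of Crygb were below 0 on both tendon arrays, their fold has no meaning there and only the called direction is given.

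The dim probe sets of Cryge were not called between cornea and tendon. For 162018_r_at the log2 difference was 0.58 ± 0.29 for adult cornea and 0.72 ± 0.31 for P10 cornea (limma adjusted p = 0.149 and 0.118), and for P10 cornea the p was 0.0263 without adult cornea replicate 3. For 96965_at the values were 0.01 ± 0.23 and 0.07 ± 0.26 (limma adjusted p = 0.988 and 0.872). The large difference between cornea and tendon seen for Cryge thus came from its bright family probe sets.

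Cryab was lower in both corneas than in tendon. The log2 difference was -0.61 ± 0.19 for adult cornea and -0.72 ± 0.20 for P10 cornea (limma adjusted p = 0.0273 and 0.0270), and lens was above tendon by 3.04 ± 0.20 (limma adjusted p = 1.42e-06). The adult call was lost without adult cornea replicate 1 (limma adjusted p = 0.0711), tendon replicate 1 (0.128) or tendon replicate 2 (0.156), and the P10 call without P10 cornea replicate 1 (0.240), tendon replicate 1 (0.126) or tendon replicate 2 (0.140). Hspb2, a small heat shock protein gene next to Cryab on chromosome 9 and also expressed in muscle, kept the same order of tissues. It had 1698 and 1812 in lens, 59.1, 75.8 and 70.2 in adult cornea, 93.7 and 114 in P10 cornea and 261 and 313 in tendon. Its log2 difference was -1.84 between adult cornea and tendon, -1.34 between P10 cornea and tendon and 2.55 between lens and tendon (limma adjusted p = 3.85e-05, 0.00102 and 5.08e-06). The skeletal muscle markers, summed above, were lower in both corneas than in tendon for 12 of 12 genes by limma. Over all tested probe sets 18.9% were lower in adult cornea than in tendon and 11% in P10 cornea. Most of the 12 passed the filter on low values only through the tendon arrays, so this count is given as a description. The part of muscle in the tendon level of Cryab was not tested.

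Lens was higher than tendon in 13 of the 15 tested probe sets and lower in 1 by limma, where 49% of all tested probe sets were called, 22.6% higher and 26.4% lower. The 13 again include the dim Cryge probe sets 162018_r_at and 96965_at, which passed the filter only through lens. The log2 difference between lens and tendon was 7.54 ± 0.38 for Cryaa and 5.64 ± 0.29 for Crygs (limma adjusted p = 2.64e-07 and 2.69e-07). The exception was 162268_at, a probe set annotated to Crygd for which no accession is listed. It had 171 and 200.1 in lens, 166, 147 and 239 in adult cornea, 736 and 593 in P10 cornea and 2067 and 1594 in tendon. Lens and adult cornea overlapped at the low end, and tendon was the highest, the reverse of the bright Crygd probe set. Its log2 difference was -3.19 ± 0.26 for lens against tendon, -3.22 ± 0.24 for adult cornea against tendon and -1.44 ± 0.26 for P10 cornea against tendon (limma adjusted p = 5.08e-06, 3.65e-06 and 0.00272). It was also lower in lens than in P10 cornea (log2 difference -1.75 ± 0.26, limma adjusted p = 0.000367) and lower in adult than in P10 cornea (-1.79 ± 0.24, limma adjusted p = 0.00284). It is the 1 member lower in lens in the counts above. Since the probe sets of Crygd disagree, neither is given as the level of Crygd in tendon.

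Among the listed regulators of crystallin genes, Hsf4, Sox2 and Prox1 were high in lens and near 0 elsewhere. Pax6, Hsf2 and Six3 were lower in lens than in both corneas by limma. Their log2 differences between lens and adult cornea were -1.34, -2.55 and -2.47. Hsf2 and Six3 were below 0 on both lens arrays. Of 26 listed regulators 20 are on the array and 16 were tested. In lens against adult cornea 8 were higher and 4 lower by limma, against a background of 24% higher and 27.2% lower over all probe sets tested. In lens against P10 cornea 7 were higher and 4 lower (19.4% and 31.6% of all), and in lens against tendon 9 and 4 (22.6% and 26.4% of all). Each of these counts of genes higher in lens includes Hsf4, Sox2, Prox1 and Crebbp, which passed the filter on low values only through the lens arrays. In adult against P10 cornea 0 of the 16 were called by limma in either direction, where 4.57% of all were, and 1 had an unadjusted p under 0.05. Adult cornea had 3 higher and 2 lower than tendon (16.1% and 18.9% of all), and P10 cornea 3 higher and 1 lower (15.7% and 11% of all).

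Hsf4, the heat shock factor of lens fibres, had 408 and 311 in lens, -3.74, 1.11 and -9.64 in adult cornea, -9.40 and -2.72 in P10 cornea and 21.3 and 3.60 in tendon. Sox2, which acts with Pax6 on crystallin enhancers, had 548 and 312 in lens, 8.05, 5.50 and 12.6 in adult cornea, 15.8 and 13.4 in P10 cornea and 5.06 and 7.67 in tendon. Prox1, needed for fibre elongation, had 233 and 175 in lens, 7.36, -2.64 and 11.2 in adult cornea, 10.1 and 19.3 in P10 cornea and 17.6 and 8.94 in tendon. In all 3 both lens arrays were above every other array. Their log2 differences between lens and adult cornea were 4.51, 4.13 and 3.33. All 3 passed the filter on low values only through the lens arrays, so these differences are given as a description. Pax6, the regulator of eye development that stays active in corneal epithelium, had 326 and 199 in lens, 833, 619 and 579.5 in adult cornea, 936 and 728 in P10 cornea and 3.80 and 2.39 in tendon. It was lower in lens than in adult cornea (log2 difference -1.34, limma adjusted p = 0.0015) and higher in adult cornea than in tendon (5.17, limma adjusted p = 2.18e-07).

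Of 13 other listed crystallins and crystallin-like genes, 4 have a probe set of their own on the array. Crybg1, a non-lens member of the beta and gamma crystallin superfamily, had 33.3 and 21.2 in lens, 998, 899 and 686 in adult cornea, 785 and 675 in P10 cornea and 44.5 and 26.2 in tendon. It was lower in lens than in adult cornea (log2 difference -4.34), the opposite of the 9 lens crystallins. Crybg1 passed the filter on low values only through the cornea arrays, so this is given as a description. Crym, a thyroid hormone binding protein that serves as a crystallin in the lens of some marsupials, had 80.8 and 83.2 in lens, 24.7, 32.7 and 37.3 in adult cornea, 56.5 and 52.0 in P10 cornea and 20.2 and 26.2 in tendon. Its log2 difference between lens and adult cornea was 1.05. Crym passed the filter on low values only through the lens arrays, so this is given as a description. Cryga shares its probe set with another symbol and was left out of the members.

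Likeness to Cryaa and Cryab across arrays was measured as Pearson's correlation of log2 values, which over so few arrays from 4 tissues mainly reflects the order of the tissues and is given as a description. Over all 9 arrays the probe sets closest to Cryaa were those of Syngr4 (r = 0.989), Klk1b22 (0.988), Mrpl9 (0.979), Sfrp1 (0.978) and Tnnc1 (0.976). Over the 7 arrays without lens they were those of Cadm1 (0.995), Syngr4 (0.995), Gnb1 (0.993), Cbr2 (0.992) and Krt6a (0.992). Krt6a, an epithelial keratin, had 2930 to 4127 in adult cornea and 2766 and 3828 in P10 cornea, with adult cornea replicate 1 the lowest of its group and P10 cornea replicate 2 the higher of its pair, as for Cryaa. For Cryab they were Asap1 (0.997), Fas (0.996), Gzmd (0.993), Drd2 (0.993) and Msx3 (0.992) over all arrays. Without lens they were Chchd10 (0.998), Cst3 (0.974), Map1lc3a (0.972), Muc3 (0.969) and Asb6 (0.967), for which tendon was the highest tissue, as it was for Cryab.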

How the data were processed

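The samples were 9 Affymetrix mouse arrays, 1 per RNA preparation. Per the labels, biotin-labelled targets were made from total RNA. The deposited values are intensities on a linear scale. The design text names Microarray Suite 5.0 followed by dChip (invariant-set scaling, model-based expression index), and the submitters' processing notes name MAS5. Whether the deposited values came from MAS5 or dChip was not stated in the sources used here. Some are below 0.

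Trimmed means of the arrays lay within a ratio of 1.171, so values were kept as deposited. Values below 0 were set to 0, 16 was added and log2 was taken, so log2 differences understate those of dim probe sets. Probe sets reaching their array's median on at least 2 of 9 arrays were tested (8154, controls left out). Group means over all arrays were estimated in R 4.3.3 by limma 3.58.1, with a variance trend, 5 residual and 4.933 prior degrees of freedom, two-sided p-values and Benjamini-Hochberg adjustment over all tested probe sets, at a threshold of 0.05. The same code was tested on simulated data. Folds are ratios of group means of the deposited index.

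Gene symbols come from the platform annotation, in which 10833 probe sets carry 1 symbol, 396 several and 1193 none, and 10817 matched the RefSeq gene table. All member probe sets are named. In each other list a gene was represented by its probe set of highest mean, and names were drawn only from its 6 called genes with the largest log2 difference, of which the text gives some. For likeness the 5 closest genes were named. The members and lists were chosen with earlier results of these data known. Alternatives were other pseudocounts, scalings and filters, no variance trend, fits restricted to the compared groups, a replicate block, each array left out, and the authors' criteria (called the methods' t-test).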

Additional observations from a re-analysis of the deposited data

How the results depend on the processing

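Over all member probe sets and alternatives, 1723 of 1794 values kept their side of the threshold, 60 kept the direction and lost the call and 11 gained it. The direction reversed in 0 values where the main fit or the alternative made a call. Changes of direction where neither made a call are counted among the 1723. One such case was Cryaa between adult and P10 cornea, whose log2 difference ran from -0.719 to 0.217 over the alternatives. The number of member probe sets called between lens and P10 cornea was 7 with the methods' t-test, against 13 with limma, and between P10 cornea and tendon it was 0, against 12. Between adult and P10 cornea 5 were called by limma, 3 with trimmed mean scaling, 3 with median centring, 1 when only the compared groups were fitted and 1 with the methods' t-test. Leaving out 1 array gave 1 to 6 there. Dropping adult cornea replicate 1 or P10 cornea replicate 1 left 3, and dropping P10 cornea replicate 2 left 1. Leaving out 1 array gave 13 for lens against adult cornea, 10 to 14 for lens against P10 cornea, 14 for lens against tendon, 11 to 12 for adult cornea against tendon and 11 to 13 for P10 cornea against tendon. Before adjustment the methods' t-test had 12, 7, 12, 1, 10 and 0 members. The order is lens against adult cornea, P10 cornea and tendon, adult against P10 cornea, and adult and P10 cornea against tendon. Of all 8154 tested probe sets, 1252, 1035, 1215, 141, 1017 and 628 met its criteria in that order. After Benjamini-Hochberg adjustment it kept 3 members for lens against adult cornea and 0 in each other comparison. Of all tested probe sets it then kept 86, 3, 0, 0, 88 and 0. The cause of these changes was not tested, except that the fit of fewer groups has fewer arrays.

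Samples of different tissues with the same replicate number deviated from their group means with correlations between -0.363 and 0.201 over 12 pairs. In a group of 2 arrays the deviations mirror each other, so some pairs repeat the same value. These correlations cannot tell whether samples with the same number shared a batch. With the replicate number as a block, 13, 14 and 14 members were called for lens against adult cornea, P10 cornea and tendon, 5 for adult against P10 cornea, 11 for adult cornea against tendon and 13 for P10 cornea against tendon. No background flags per probe set were used, so dim values have no lower limit of detection here, and groups of 2 arrays borrow their spread from the others.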
